A study of Mus musculus with 8 samples.

Results

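Primary granules, also called azurophil granules, are the first granules a developing neutrophil makes, and their contents are transcribed at the promyelocyte stage, before the secondary and tertiary granules form. They hold myeloperoxidase and a family of serine proteases that are packed as active enzymes and released to kill microbes. In myeloid leukemia the same genes mark cells halted near the granulocyte and monocyte progenitor. The 9 genes described here, Mpo, Elane, Prtn3, Ctsg, Ctsc, Ms4a3, Srgn, Lyz2 and Igsf6, were chosen by name, and all 9 of the 9 were found among the 12823 rows of the read count table and passed the filter on low counts, as did 12494 genes in all. Ms4a3 and Igsf6 are membrane proteins of myeloid progenitors and monocytes and not granule contents, so the group is wider than its name.

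The study transduced bone marrow progenitors of C57BL/6 mice with MLL-AF9, a leukemia fusion gene carried on a vector that also makes green fluorescent protein (GFP), and let acute myeloid leukemia (AML) develop in sublethally irradiated recipients. GFP+ cells of that leukemia were the new AML group (4 libraries), and cells described as derived from it by 5 passages through non-irradiated recipients were the aggressive AML group (4 libraries). Both groups carry MLL-AF9 and GFP, both are labelled as bone marrow, and the labels name no age of the mice. The labels number the samples as biological replicates without naming the mice, so p-values measure the spread between these samples. How many separately arising leukemias the samples represent is not stated in the labels, so spread between leukemias may not be measured.

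Total counts ranged from 7805544 to 9697777 per library, and the 9 genes took 0.670% to 0.785% of them in new AML and 0.662% to 0.932% in aggressive AML. All 9 listed markers of MLL-AF9 leukemia, such as Hoxa9, Meis1 and Kit, were detected in every library, which alone does not test the labelled cell type. In the comparison described below, 3 of the 9 were called higher and 3 lower in aggressive AML, where 18.4% of all tested genes were called. One measurement bears on every comparison: 4 genes of the Y chromosome (Ddx3y, Eif2s3y, Kdm5d and Uty) summed to 2315 to 2574 counts in each new AML library and to 0 counts in each aggressive AML library, although the labels describe one leukemia as derived from the other. The paper's figure legend for this sequencing gives male mice, without saying whether donors or recipients are meant. Whether the difference in origin or sex chromosome content moved the granule genes was not tested. The labels give no batch or date, and a batch that follows the group cannot be told apart from the group.

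Promoters of such enzymes are known targets of PU.1, a factor of the ETS family, and of MYB and C/EBP factors. The sequences before the start sites of the 4 main enzymes are shown because these genes divided into a pair that rose and a pair that did not. The 250 bases before the RefSeq start are printed 5′ to 3′ on the strand of the gene, from build GRCm38.p6, at chr11:87793534-87793783 (plus strand) for Mpo, chr10:79886062-79886311 (plus) for Elane, chr10:79879417-79879666 (plus) for Prtn3 and chr14:56102575-56102824 (minus) for Ctsg. Capitals mark GAGGAAG, a form of the PU.1 motif, and AACNG, the core of the MYB motif, on either strand (CTTCCTC and CNGTT when reversed).
Mpo: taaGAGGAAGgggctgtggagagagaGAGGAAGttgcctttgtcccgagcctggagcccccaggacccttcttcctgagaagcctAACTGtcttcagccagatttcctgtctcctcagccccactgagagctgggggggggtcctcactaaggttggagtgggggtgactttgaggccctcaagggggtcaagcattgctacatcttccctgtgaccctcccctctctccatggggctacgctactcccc
Elane: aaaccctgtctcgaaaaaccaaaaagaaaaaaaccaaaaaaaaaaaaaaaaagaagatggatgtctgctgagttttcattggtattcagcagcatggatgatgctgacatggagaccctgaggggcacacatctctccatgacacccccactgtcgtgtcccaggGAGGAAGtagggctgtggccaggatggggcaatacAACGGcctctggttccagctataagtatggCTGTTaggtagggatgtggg
Prtn3: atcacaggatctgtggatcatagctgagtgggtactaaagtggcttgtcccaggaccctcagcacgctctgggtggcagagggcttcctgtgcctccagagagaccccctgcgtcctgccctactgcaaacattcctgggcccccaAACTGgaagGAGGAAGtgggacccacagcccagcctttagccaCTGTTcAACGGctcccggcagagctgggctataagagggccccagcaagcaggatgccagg
Ctsg: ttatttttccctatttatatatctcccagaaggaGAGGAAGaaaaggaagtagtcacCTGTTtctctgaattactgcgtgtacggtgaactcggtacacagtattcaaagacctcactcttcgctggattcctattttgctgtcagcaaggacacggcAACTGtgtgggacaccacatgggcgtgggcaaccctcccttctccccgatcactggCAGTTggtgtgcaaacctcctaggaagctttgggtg
GAGGAAG began at -247 and -224 from the start in Mpo, at -85 in Elane, at -95 in Prtn3 and at -216 in Ctsg. It was present in 5 of the 9 genes, Ctsc being the fifth, and in 13.6% of the 32817 promoter windows of the same 300 bases (250 before to 50 after the start). AACNG was found in 8 of the 9, all but Ms4a3, and in 80.3% of all windows. A C/EBP motif, TTGCNNAA, was found in Ms4a3 and in 10.8% of all windows, and a RUNX motif, TGTGGT, was found in Ctsg and Lyz2, in a second start site window of Srgn and in 16.8% of all windows. Counts of genes use the first window of each gene. The motifs were chosen after these sequences were seen, the MYB and PU.1 letters do not overlap in the printed stretches, and both the pair that rose and the pair that did not hold them.

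Levels are counts per 1000000 counts of the scaled library total (CPM), differences are log2 fold changes of aggressive over new AML, and a gene is called when its adjusted p is under 0.05 in edgeR's quasi-likelihood test with Benjamini-Hochberg adjustment over all tested genes. Of the 9 genes, 5 were called, against 18.4% of all tested genes. Elane, Ctsg and Srgn rose, 3 of 9 against 8.15% of all genes, and Lyz2 and Igsf6 fell, 2 of 9 against 10.2% of all genes. Mpo, Prtn3, Ctsc and Ms4a3 were not called. The median difference of the 9 was -0.08, and that of all tested genes was 0.00. All 4 aggressive AML libraries lay above all 4 new AML libraries for Ctsg and Srgn, as for 9.76% of all genes, and below them for Igsf6, as for 12.0%. These were 3 of the 9, against 21.8% of all genes in either direction. In bulk RNA, fewer cells of a type and less RNA per cell cannot be told apart.

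**Figure D1:**
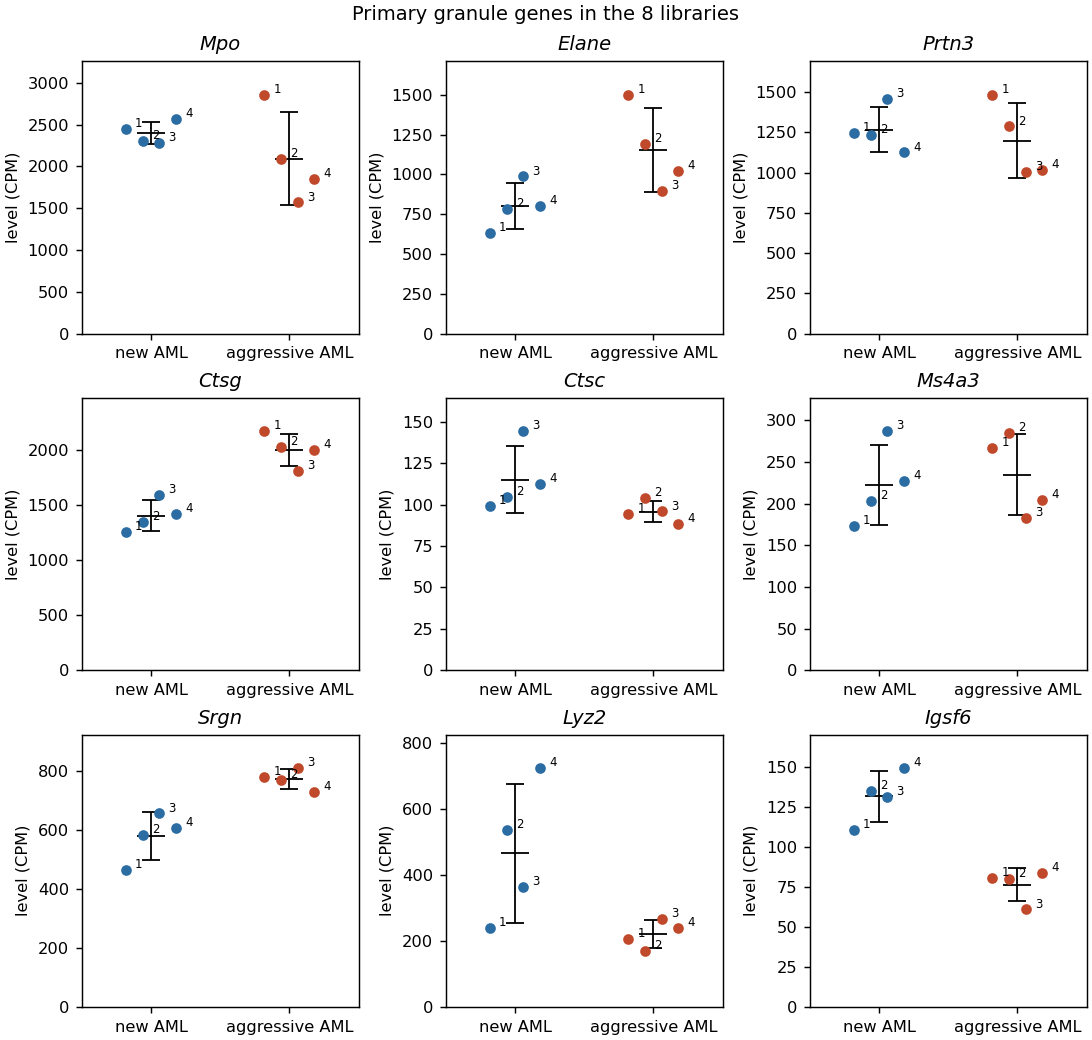
Level of each of the 9 genes in CPM (vertical axis, linear, from 0) in the 4 new AML (blue) and 4 aggressive AML (red) libraries. Points are libraries with their replicate number, and the bars are the mean and SD (n = 4). Ctsg and Srgn are higher and Igsf6 is lower in every aggressive AML library than in any new AML library, and the other 6 genes overlap.

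Per length, the enzymes were among the most abundant transcripts of these cells. Ctsg had 1404 ± 144 CPM per kilobase of exon in new AML (SD, n = 4) and 2000.3 ± 148 in aggressive AML, which placed it at rank 24 and 16 of the 11609 genes with a length. Prtn3 followed with 1236 ± 135 and 1169 ± 226 (rank 30 and 41), Mpo with 826 ± 46.0 and 720.3 ± 191 (rank 52 and 66) and Elane with 816 ± 148 and 1173 ± 267 (rank 54 and 40). In new AML, Mpo and Elane lay within each other's SD, and in aggressive AML the same held of Elane and Prtn3. Lyz2 (354 ± 160 and 167 ± 32.0) and Srgn (330.1 ± 46.4 and 441 ± 19.1) lay within each other's SD in new AML. In aggressive AML Srgn was above Lyz2. Ms4a3 had 220.1 ± 47.6 and 232 ± 48.4, which was below Lyz2 in new AML and above it in aggressive AML. Igsf6 (60.6 ± 7.35 and 35.1 ± 4.77) and Ctsc (21.6 ± 3.798 and 17.99 ± 1.19) were the least abundant of the 9.

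Mpo encodes myeloperoxidase, the heme enzyme that makes hypochlorous acid (chr11:87793784-87804412, plus strand). Its level was 2449, 2307, 2276 and 2564 CPM in new AML replicates 1 to 4 and 2859, 2093, 1569 and 1846 CPM in aggressive AML replicates 1 to 4. The new AML libraries lay close together, and the aggressive AML libraries spread on both sides of them, with replicate 1 the highest of all 8 and the others the lowest 3. The means were 2399 ± 133 and 2092 ± 554 (SD, n = 4), a difference of -0.20 ± 0.13 on the log2 scale (SE; 95% interval -0.48 to 0.09, adjusted p = 0.328 in edgeR's quasi-likelihood test). Mpo varied more among aggressive AML libraries (coefficient of variation 26.5%) than among new AML libraries (5.56%). Without aggressive AML replicate 1, Mpo was called lower, at -0.39 (adjusted p = 0.0155), so that the call turns on that library. An antisense gene, Gm11505, overlaps Mpo and could share reads with it.

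Elane, Prtn3 and Ctsg encode neutrophil elastase, proteinase 3 and cathepsin G, serine proteases with related folds. Elane (chr10:79886312-79888216, plus strand) lies next to Prtn3. Elane had 633, 786, 989 and 804 CPM in new AML and 1503, 1195, 895 and 1022 CPM in aggressive AML. The groups overlapped only through new AML replicate 3, which was above aggressive AML replicate 3. The mean rose from 803 ± 146 to 1154 ± 263 CPM, by 0.52 ± 0.14 (SE; 95% interval 0.21 to 0.83, adjusted p = 0.0205), and the call was lost when new AML replicate 1 (0.42, adjusted p = 0.0660), new AML replicate 2 (0.51, 0.0566) or aggressive AML replicate 1 (0.37, 0.0718) was left out.

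Prtn3 (chr10:79879667-79883174, plus strand), the neighbour of Elane on the same strand, gave 1247, 1237, 1458 and 1125 CPM in new AML and 1485, 1287, 1003 and 1016 CPM in aggressive AML. The groups overlapped, with aggressive AML supplying both the highest and the lowest library. The difference was -0.08 ± 0.12 (SE; 95% interval -0.33 to 0.17, adjusted p = 0.675). A GENCODE model of Prtn3 overlaps Plppr3 on the opposite strand, and because the strand setting of the counting is not given, reads of the pair could be mixed. Plppr3 had 254 ± 12.5 and 236 ± 24.6 CPM and was not called (adjusted p = 0.386).

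Ctsg (chr14:56099885-56102574, minus strand) had 1256, 1350.3, 1597 and 1424 CPM in new AML and 2174, 2029.9, 1813 and 2000.4 CPM in aggressive AML. Every aggressive AML library was above every new AML library. The mean rose from 1407 ± 144 to 2004 ± 148 CPM (SD, n = 4), by 0.51 ± 0.08 (SE; 95% interval 0.33 to 0.69, adjusted p = 0.000636). The next protein-coding gene on that strand, Mcpt8, a granule protease best known from basophils, had 30.5, 22.0, 34.4 and 24.9 CPM in new AML and 82.2, 78.5, 83.3 and 67.4 CPM in aggressive AML. It rose by 1.48 ± 0.13 (SE; adjusted p = 2.02e-06). Its other listed mast cell and basophil companions Cpa3, Ms4a2, Hdc and Gata2 were not called, so 1 of the 5 markers with a row rose, and the summed level of the 5 was 141 to 181 CPM in new AML and 203 to 223 CPM in aggressive AML. The part of such cells in the rise of Ctsg was not tested.

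**Figure D2:**
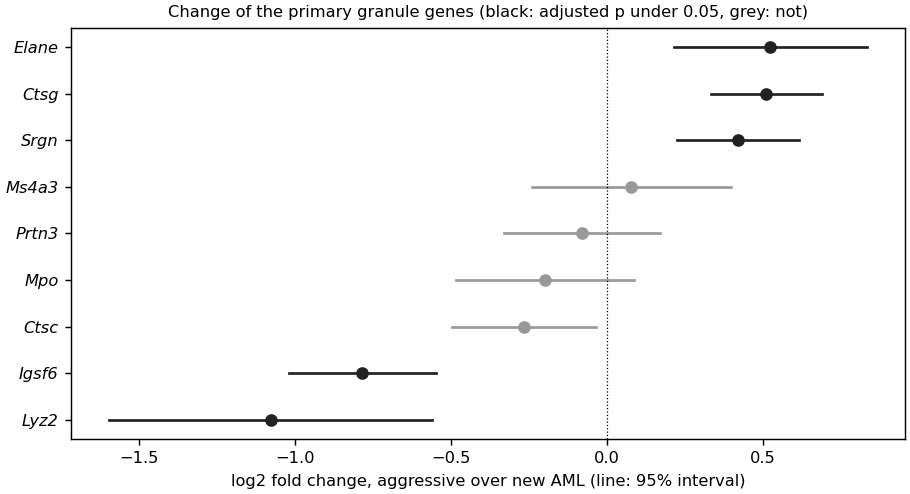
Log2 fold change of each of the 9 genes, aggressive over new AML (horizontal axis, points), with its 95% interval (lines) from edgeR's fit over all tested genes. Elane, Ctsg and Srgn lie above 0 and Igsf6 and Lyz2 below it (black, adjusted p under 0.05), while the 4 grey genes were not called.

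The 4 enzymes were set against each other within each library, a description chosen after their values were seen and without a test. Whether the same cells made all 4 was not tested. Elane reached 0.507, 0.636, 0.678 and 0.715 of the CPM of Prtn3 in new AML and 1.01, 0.928, 0.892 and 1.01 of it in aggressive AML. The ratio was thus higher in every aggressive AML library, by 0.61 in mean log2 or 1.52-fold. Elane over Mpo moved from between 0.258 and 0.434 to between 0.526 and 0.571, again without overlap. In the latter ratio the aggressive AML libraries lay closer together (SD 0.06 in log2) than those of Elane alone, whose highest and lowest libraries differed 1.68-fold.

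Ctsg behaved like Elane in this respect. Ctsg over Prtn3 was 1.01, 1.09, 1.10 and 1.27 in new AML and 1.46, 1.58, 1.81 and 1.97 in aggressive AML. Ctsg over Mpo went from between 0.513 and 0.702 to between 0.760 and 1.16, also without overlap. The remaining pairs, Elane over Ctsg (difference 0.00) and Prtn3 over Mpo (0.14), overlapped between the groups. Leaving out any single library kept the difference between 0.50 and 0.67 for Elane over Prtn3 and between 0.53 and 0.68 for Ctsg over Prtn3.

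**Figure D3:**
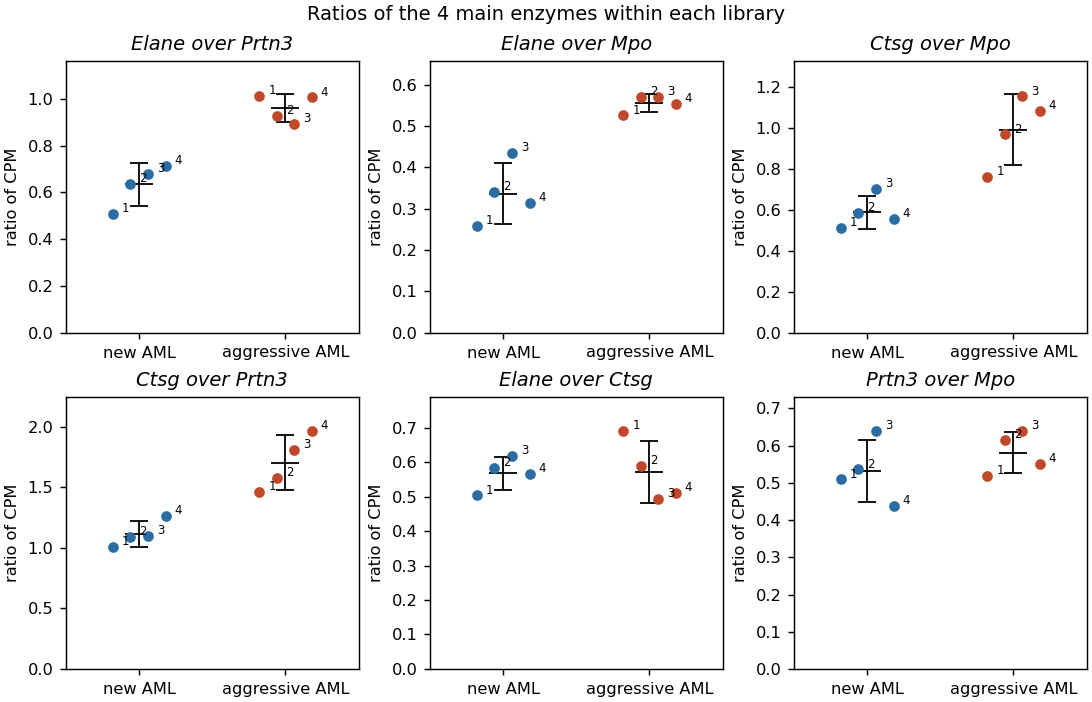
Ratio of the CPM of each pair of the 4 enzymes within a library (vertical axis, linear, from 0), for the 4 new AML (blue) and 4 aggressive AML (red) libraries with replicate numbers, mean and SD (n = 4). Elane and Ctsg over Prtn3 and over Mpo are higher in every aggressive AML library, while Elane over Ctsg and Prtn3 over Mpo overlap.

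Ctsc encodes cathepsin C, the dipeptidyl peptidase that removes the activation peptide of elastase, proteinase 3 and cathepsin G (chr7:88278024-88315861, plus strand). It gave 99.2, 105, 144 and 113 CPM in new AML and 94.6, 104, 96.0 and 88.6 CPM in aggressive AML. The groups overlapped through the lower new AML libraries, and new AML replicate 3 stood highest. The difference was -0.27 ± 0.11 (SE; 95% interval -0.50 to -0.04), with an unadjusted p = 0.0260 that did not pass adjustment (adjusted p = 0.0999 in edgeR). The noncoding gene Gm26522 overlaps it on the other strand.

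Srgn encodes serglycin, the proteoglycan core on which the basic proteases are packed in the granule (chr10:62493833-62527445, minus strand). It had 465, 584, 657 and 608 CPM in new AML and 781, 771, 811 and 729.8 CPM in aggressive AML. All aggressive AML libraries were above all new AML libraries and differed little among themselves (coefficient of variation 4.34%, against 14.0% in new AML). The mean rose from 579 ± 81.3 to 773 ± 33.6 CPM, by 0.42 ± 0.09 (SE; 95% interval 0.22 to 0.61, adjusted p = 0.00528).

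Lyz2 encodes lysozyme M, which is stored in granules of neutrophils and is also secreted by monocytes and macrophages (chr10:117277541-117282272, minus strand). It had 238.6, 536, 363 and 723 CPM in new AML and 205, 170.1, 268 and 238.8 CPM in aggressive AML. The new AML libraries ranged 3.03-fold, and replicate 1 lay among the aggressive AML libraries. The mean fell from 465 ± 211 to 220.4 ± 42.2 CPM, a difference of -1.08 ± 0.24 (SE; 95% interval -1.60 to -0.56, adjusted p = 0.00628). The adjacent near-identical gene Lyz1 can share reads with it, so both values are uncertain to that extent. Lyz1 had 3.69, 7.37, 2.79 and 11.1 CPM in new AML, in which replicates 2 and 4 were also the highest, and 1.93, 1.77, 1.68 and 2.73 CPM in aggressive AML. Its difference was -1.61 ± 0.40 (SE; adjusted p = 0.0110).

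Some markers of monocytes and macrophages were lower in aggressive AML, as Lyz2 was. Of the 16 listed, 12 had a row and 11 were tested, of which 5 fell, 0 rose and 6 were not called, with a median of -0.93, where 10.2% of all tested genes fell. Csf1r, the receptor for macrophage colony-stimulating factor, fell by 1.70 (adjusted p = 3.76e-07), and F13a1, a coagulation factor subunit made by monocytes, fell by 1.21 (adjusted p = 8.96e-05). Their summed level was 3077 to 3710 CPM in new AML and 2831 to 3093 CPM in aggressive AML, much of it from the inflammatory monocyte antigen Ly6c2, which was not called (1727 and 2067 CPM, difference 0.26, adjusted p = 0.134). Adgre1, the macrophage antigen F4/80, fell by 0.83 (adjusted p = 0.00245), and Cd14 was not called (0.42). Vcam1 had 7, 32, 18 and 50 counts in the new AML libraries, highest in replicates 2 and 4 as was Lyz2, and 11, 1, 7 and 14 counts in the aggressive AML libraries. C1qc had 2, 11, 11 and 12 counts against 1, 4, 4 and 3. The part of monocytes or macrophages in the fall of Lyz2 was not tested.

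**Figure D4:**
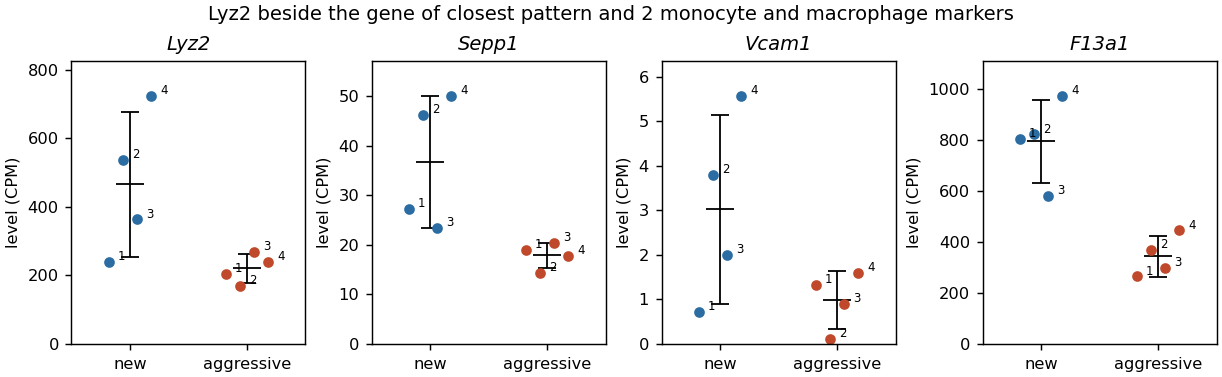
Level in CPM (vertical axes, linear, from 0) of Lyz2, of Sepp1, whose pattern over the libraries was closest to it, and of the monocyte and macrophage markers Vcam1 and F13a1, in new AML (blue) and aggressive AML (red), with replicate numbers, mean and SD (n = 4). Replicates 2 and 4 are the highest new AML libraries for all 4 genes.

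Ms4a3, a membrane protein of granulocyte and monocyte progenitors, lies at chr19:11629499-11640851 (minus strand). It gave 173, 204, 287 and 228 CPM in new AML and 268, 285, 183 and 205 CPM in aggressive AML. The groups overlapped over nearly their whole range. The difference was 0.08 ± 0.15 (SE; 95% interval -0.24 to 0.40, adjusted p = 0.759), and it changed sign when single libraries were left out (-0.03 to 0.22). Its tested neighbour Ms4a2, the beta chain of the mast cell IgE receptor, had 4.51 ± 1.59 and 3.19 ± 0.791 CPM and was not called (adjusted p = 0.262).

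Igsf6, an immunoglobulin superfamily receptor of myeloid cells, lies at chr7:121064067-121074581 (minus strand). It had 111, 135, 132 and 149 CPM in new AML and 80.5, 80.2, 61.0 and 83.9 CPM in aggressive AML. Every aggressive AML library was below every new AML library. The mean fell from 132 ± 15.98 to 76.4 ± 10.4 CPM, a difference of -0.78 ± 0.11 (SE; 95% interval -1.02 to -0.55, adjusted p = 0.00017). Igsf6 lies inside the span of Mettl9, a methyltransferase gene on the opposite strand, with which it could exchange reads if strand was not used. Mettl9 went the other way, from 57.0 ± 1.38 to 64.5 ± 3.76 CPM, and was not called (0.18, adjusted p = 0.151).

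New AML replicate 1 was the lowest of its group for 7 of the 9 genes, and replicate 3 was the highest for the 6 genes Elane, Prtn3, Ctsg, Ctsc, Ms4a3 and Srgn. In aggressive AML, replicate 1 was the highest for Mpo, Elane, Prtn3 and Ctsg, and replicate 3 was the lowest for 6 of the 9. Mpo and Prtn3 departed from this in new AML, where Mpo was lowest in replicate 3 and highest in replicate 4 and Prtn3 was lowest in replicate 4.

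Other genes of the granule were followed through lists, whose counts stand beside the 18.4% called over all tested genes. Of 25 further contents and membrane proteins of azurophil granules and lysosomes, 24 were tested, of which 3 rose and 2 fell, with a median of 0.00, a share close to that of all genes. Prss57, a serine protease packed with elastase, rose from 100.3 ± 8.92 to 132.8 ± 19.7 CPM (0.41, adjusted p = 0.0131). Cd63, a tetraspanin of the granule membrane (0.67, adjusted p = 0.0146; 0.0503 without new AML replicate 2), and Arsb, a lysosomal sulfatase (0.53, adjusted p = 0.00255), also rose. The lysosomal glycosidases Hexa (-0.55, adjusted p = 0.000123) and Man2b1 (-0.28, adjusted p = 0.0170) fell. The call of Man2b1 held in 4 of 8 fits that left out 1 library, with an adjusted p of 0.0566 at most.

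The listed protease inhibitors changed in both directions, and not all of them act on the serine proteases of the granule. Of 12 listed, 10 were tested, of which 3 rose and 3 fell, with a median of 0.17. Slpi, the secretory leukocyte inhibitor of elastase and cathepsin G, had 1393, 1231, 1460 and 1164 CPM in new AML and 3196, 3227, 3817 and 3142 CPM in aggressive AML. The groups lay far apart, and Slpi rose by 1.35 ± 0.09 (SE; adjusted p = 1.69e-07), a larger difference than that of Elane, Ctsg or Srgn. Spint2, a Kunitz inhibitor of serine proteases, rose by 0.41 (adjusted p = 0.00877), and the serpin Serpinb6a rose by 0.93 (adjusted p = 0.00744). Serpinb1a, the cytosolic inhibitor of elastase, proteinase 3 and cathepsin G, had 352 ± 57.6 and 442 ± 57.5 CPM and was not called (0.33, adjusted p = 0.0548).

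The inhibitors that fell included Cst3, the cysteine protease inhibitor cystatin C (-0.43, adjusted p = 0.00178), and Wfdc17 (-0.95, adjusted p = 0.00122). Serpina3g was called lower at -1.92 (adjusted p = 0.0256), but its level rests on new AML replicate 3, with 66.9 CPM against 7.97 to 14.8 CPM in the other new AML libraries. Without that library the difference was -0.73 (adjusted p = 0.0885), and the call was also lost without any 1 of aggressive AML replicates 1, 3 and 4.

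Among genes that sort, form and release granules, 28 were tested, of which 1 rose and 4 fell, with a median of -0.11, a share called close to the 18.4% of all tested genes. Igf2r, the large mannose 6-phosphate receptor that delivers enzymes to lysosomes, fell from 11.9 ± 2.30 to 2.32 ± 0.667 CPM (-2.34, adjusted p = 1.22e-05). Hps5 (-0.48, adjusted p = 0.000772) and Hps6 (-0.61, adjusted p = 0.00745) belong to the complex that shapes lysosome-related organelles, and both fell. The adaptor complex that carries elastase to granules moved unequally, with Ap3s1 up (0.29, adjusted p = 0.0152) and Ap3d1 down (-0.27, adjusted p = 0.0270). The call of Ap3d1 held in 3 of 8 fits that left out 1 library, with an adjusted p of 0.0738 at most.

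Of 14 genes for the folding of myeloperoxidase and the making of its heme, 1 rose and 1 fell, with a median of -0.08. Fech, which inserts iron in the last step of heme synthesis, rose (0.52, adjusted p = 0.00255), and Uros, an earlier enzyme of that path, fell (-0.50, adjusted p = 0.0321). The call of Uros held in 3 of 8 fits that left out 1 library, with an adjusted p of 0.0902 at most.

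**Figure D5:**
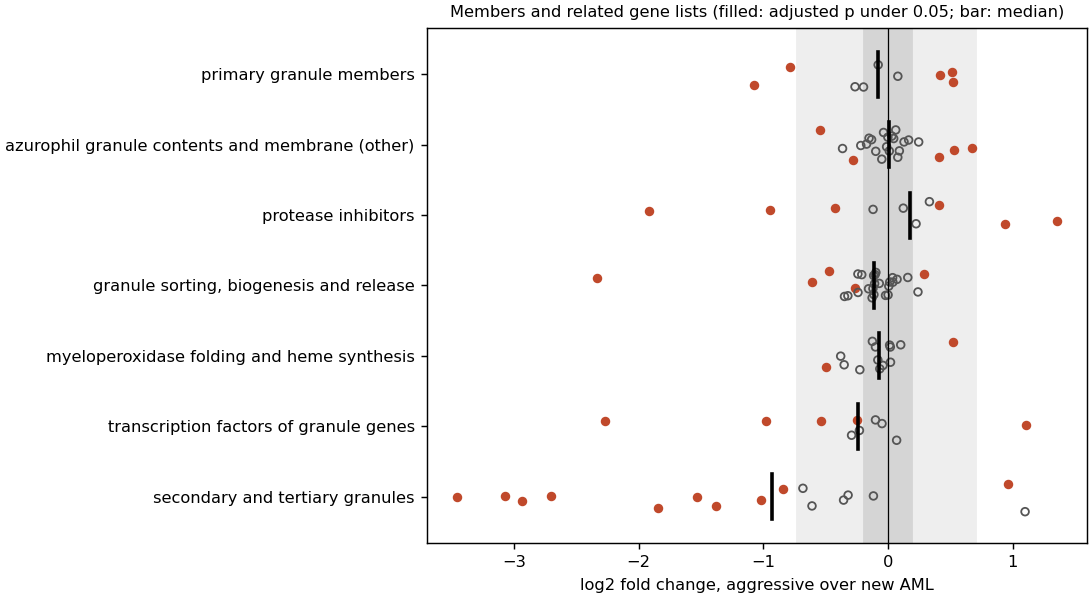
Log2 fold change, aggressive over new AML (horizontal axis), of the 9 genes and of the tested genes of 6 lists (rows). Points are genes (filled, adjusted p under 0.05), thick bars are medians, the dark band spans the 25th to 75th and the light band the 5th to 95th percentile of all tested genes, and height within a row has no meaning. The list of secondary and tertiary granule genes has its median at -0.93, and the medians of the other rows lie between -0.24 and 0.17.

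Transcription factors of granule genes were measured in all of 10 cases, of which 1 rose and 4 fell, with a median of -0.24. Cebpe, which drives the promyelocyte to myelocyte step, had 19.6, 27.5, 38.9 and 28.0 CPM in new AML and 70.2, 72.2, 34.9 and 66.7 CPM in aggressive AML. Aggressive AML replicate 3 stayed within the new AML range, and Cebpe rose by 1.10 ± 0.21 (SE; adjusted p = 0.00233). Runx1 fell from 203 ± 18.6 to 102 ± 13.5 CPM (-0.98, adjusted p = 9.17e-06), and the monocyte factors Klf4 (-2.27, adjusted p = 0.000304) and Irf8 (-0.54, adjusted p = 0.000657) fell too. Spi1, which encodes PU.1, fell by 0.25 (adjusted p = 0.0159; 0.0530 without new AML replicate 2). Cebpa (-0.10), Gfi1 (-0.05) and Myb (692 and 725 CPM) were not called.

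Secondary and tertiary granule genes, which neutrophils switch on after the primary granules, moved further than the primary granule genes. Of 19 listed, 16 were tested, of which 9 fell and 1 rose, with a median of -0.93, beside the -0.08 of the 9 primary granule genes. Ltf, the iron binder lactoferrin, had 29.9, 36.0, 23.0 and 35.1 CPM in new AML and 3.86, 1.53, 4.79 and 4.55 CPM in aggressive AML. It fell by 3.07 (adjusted p = 7.58e-07), without overlap between the groups. Mmp8, a collagenase, fell by 1.84, Ngp by 1.53 and Camp, the cathelicidin precursor, by 1.38 (adjusted p = 1.58e-06, 0.000106 and 0.0016). The list was wider than its name in both directions. Padi4, which rose (0.96, adjusted p = 0.000118), encodes a nuclear peptidylarginine deiminase and is not a granule protein. The listed S100a8 (-0.85, adjusted p = 0.0014) and S100a9 (-1.02, adjusted p = 0.000455), which fell, encode mainly cytosolic proteins. The difference between the lists was not tested.

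Other cell types gave few signals. Of 10 markers of T and NK cells, 1 was tested and rose, Nkg7, a granule membrane protein of cytotoxic lymphocytes (14.9 and 24.1 CPM, 0.70, adjusted p = 0.0225). Of 9 eosinophil markers 2 were tested, and 0 rose or fell. Of 5 B cell markers 1 was tested, and 0 rose or fell. Of 9 erythroid markers 6 were tested, of which 1 fell and 0 rose, and the 8 with a row summed to 26.7 to 96.0 CPM in new AML and 10.5 to 51.9 CPM in aggressive AML. The part of such cells in the values of the 9 genes was not tested.

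The genes most like each of the 9 over the 8 libraries were found by the root mean square difference of log2(CPM + 1) after each gene's mean was subtracted, so that 0 is an identical pattern. For Ctsg the closest were Mettl22 (0.0752), Afap1 (0.0853) and Rpl27 (0.0948), and for Elane they were Rpl27 (0.0996), Mettl22 (0.130) and Serpinb1a (0.131). The closest gene to Prtn3 was Rab9 (0.0649), to Mpo Rnf43 (0.102), to Ctsc Shisa5 (0.0768), to Srgn Apmap (0.0631), to Ms4a3 Gal3st1 (0.109) and to Igsf6 Rassf2 (0.0956). The median over all tested genes with a mean of at least 10 CPM lay between 0.247 and 0.685 for the 9. For Lyz2 the closest were Sepp1 (0.246), I830127L07Rik (0.260) and Ptpro (0.267), and the median of 0.685 was that of Lyz2. The measure grows with a gene's own spread, so distances are not comparable between members. Sepp1, which encodes a selenium transport protein, had 27.3, 46.2, 23.4 and 49.9 CPM in new AML and 18.9, 14.4, 20.3 and 17.8 CPM in aggressive AML, and it fell by 1.04 (adjusted p = 0.00329). These likenesses describe 8 libraries and were not tested.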

How the data were processed

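Poly(A) RNA of GFP+ cells was sequenced from both ends, and the authors aligned reads to mm10 with HISAT2, used Rsubread for read counts per gene and dropped genes under 1 CPM. The annotation and strand setting are not given in the sources used here. The deposited values are whole-number counts with a different total in each library, although the table is named for CPM, and they were used as raw read counts.

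Genes that reached 1 CPM in 4 or more of the 8 libraries were tested with edgeR 4.0.16 in R 4.3.3 (quasi-likelihood, TMM scaling, group alone, two-sided p, Benjamini-Hochberg over 12494 genes, threshold 0.05). The TMM factors lay between 0.986 and 1.01. SE and 95% intervals came from the F statistic. limma 3.58.1, DESeq2 1.42.0 and other filters, scalings and libraries left out are alternatives, and the script was tested on simulated data. Coordinates and promoters are those of RefSeq GRCm38.p6, and exon lengths those of GENCODE, which covered 92.9% of tested genes. All 9 genes matched a promoter. Replicates differed beyond sampling noise in every pair.

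The 9 genes and the lists were chosen with earlier results of these data known. Named list genes are up to 4 per direction with the largest fold change among called genes whose higher group averaged 10 CPM or more, and the 3 most similar tested genes were taken per member with a mean of at least 10 CPM. Annotated neighbours were added by rule. Other named genes (Plppr3, Mettl9, Serpinb1a, S100a8, S100a9, Cebpa, Gfi1, Myb and the markers given with values) were chosen after their values were seen. Some listed genes are not reported here.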

Additional observations from a re-analysis of the deposited data

Results flagged for a closer look

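Among 110 groups of 4 libraries tested for a library that stands apart, 8 met the criterion. It was that the gap to the nearest other library takes most of the range of the group. The groups covered the 9 genes, their tested neighbours, the named list genes, some other named genes and only some of the markers. Chance flags about 1 in 20 groups. Of the 8, 6 were in aggressive AML replicate 3. Igsf6 was at 61.0 CPM there, against 80.2 to 83.9 CPM in the other aggressive AML libraries. In the same library Cebpe was at 34.9 CPM (others 66.7 to 72.2), Myb at 617 CPM (753 to 768), Slpi at 3817 CPM (3142 to 3227), Ap3s1 at 292 CPM (248.7 to 255.1) and Ly6c2 at 2175 CPM (2019 to 2042). Without this library Igsf6 still fell (-0.69, adjusted p = 0.000154 in edgeR) and the 5 called genes of the 9 were called again. In new AML, Prss57 was at 86.9 CPM in replicate 4 (others 104 to 106) and Serpina3g at 66.9 CPM in replicate 3 (others 7.97 to 14.8).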

How the results depend on the processing

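Ctsg, Srgn, Lyz2 and Igsf6 were called in all 17 alternatives, with differences of 0.46 to 0.58, 0.33 to 0.48, -1.30 to -0.78 and -0.86 to -0.69, and Prtn3, Ctsc and Ms4a3 in 0 of 17. Elane was called in 13 of 17. DESeq2's Wald test gave it 0.53 (adjusted p = 0.0540), and its range with single libraries left out was 0.37 to 0.64. Mpo ranged from -0.39 to -0.080 over the libraries left out and Ms4a3 from -0.029 to 0.22. Without aggressive AML replicate 3, Cebpa (0.033, range -0.19 to 0.033) and Gfi1 (0.082, range -0.13 to 0.082) changed sign, both uncalled. The causes were not tested. Over all genes, 2296 were called, and 1534 to 2381 with single libraries left out, the fewest without new AML replicate 2, and 1739 at a minimum of 10 CPM, where fewer genes were tested. Unadjusted, 4070 had p under 0.05. Deviations from the group mean in same-numbered samples gave correlations of 0.0967, -0.0399, -0.0654 and 0.204. With 4 libraries a group, tied to their own mean, these cannot exclude a pairing, and the labels name none. With a replicate block, 2367 genes were called and Elane gave 0.51 (adjusted p = 0.0427). Over the alternatives, 2 or 3 of the 9 genes were called higher and 2 or 3 lower. Counts of called list genes ranged from 2 to 3 higher and 1 to 5 lower for azurophil contents, 2 to 4 and 2 to 3 for inhibitors, 1 to 2 and 3 to 5 for sorting, 1 and 0 to 2 for folding and heme, 1 and 3 to 5 for transcription factors, and 1 to 2 and 6 to 11 for secondary and tertiary granules. The lists, ratios and non-member genes were added to the alternatives after the data were seen. Strand, overlap and near-identical copies limit Prtn3, Igsf6 and Lyz2. With 4 libraries a group, a gene that was not called may still differ.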
